A study of Mus musculus with 6 samples.

Results

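A group of 10 imprinted genes of the fetal growth network, H19, Meg3, Rian, Dlk1, Peg3, Mest, Plagl1, Ndn, Grb10 and Nnat, were examined in mouse retinal ganglion cells (RGCs), the neurons whose axons form the optic nerve. They were picked by symbol from a table of 24060 genes, and all 10 had a row. RNA was sequenced from C57BL/6 RGCs at embryonic day 18 (E18; replicates 1, 3 and 4) and at postnatal day 5 (P5; replicates 6, 8 and 9), ages between which RGCs lose their ability to extend axons rapidly. In both groups macrophages were first removed with antibodies from the dissociated retina, and RGCs were then held on dishes coated with antibody against CD90 (Thy1). No genotype or treatment separated the groups, and the labels do not say how many animals or litters went into a sample, so that p-values measure the spread between these samples. The column read as E18 replicate 1 is headed with the numbers 1, 2 and 5, and whether it pools preparations is not stated.

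An imprinted gene is expressed mainly from the copy inherited from one parent, according to DNA methylation set in the egg or the sperm. Many imprinted genes lie in clusters. In those of H19 and Dlk1, the listed protein-coding genes are expressed from the paternal copy and the long noncoding RNAs from the maternal copy. Elsewhere this can be reversed, as for the paternal noncoding RNAs Kcnq1ot1 and Airn and the maternal coding genes Cdkn1c and Igf2r. Many imprinted genes promote or restrain fetal growth, and in most tissues their expression declines after birth, although several stay active in neurons. Read counts as deposited do not tell the parental copies apart, so the values below are the sum of both.

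The samples held 81213639 to 114512853 counted reads. The summed level of 15 RGC markers was 8230 to 9710 CPM at E18 and 8750 to 10100 CPM at P5 (read counts scaled to library size, CPM, with TMM factors). Within this list 3 genes were called higher at E18 and 5 lower by edgeR, beside 20.8% and 22.5% of all genes tested. Isl1 was among the higher (log2 fold change 1.10), and Thy1, the target of the panning antibody, was among the lower (-1.16). Other lists moved with age and unevenly within E18. The sum of 12 retinal progenitor genes was 318, 139.8 and 43.7 CPM in E18 replicates 1, 3 and 4 and 26.5 to 39.2 CPM at P5, and that of 14 dividing-cell genes was 421, 195 and 139 CPM against 106 to 129 CPM. The sums of 9 endothelial and pericyte genes were 72.8, 64.5 and 16.5 CPM at E18 and 14.6 to 17.9 CPM at P5. Kdr was the only gene of this list called higher at E18 (69.5, 62.9 and 14.1 CPM against 4.79 to 11.3 CPM), Pecam1, Tek and Rgs5 were called lower by edgeR (log2 fold changes of -1.81, -1.80 and -4.36), and Cdh5 was at most 0.0609 CPM. The 9 mesenchymal genes summed to 6.18 to 16.4 CPM and 5.58 to 7.36 CPM, and 5 of 9 red blood cell genes had no count in any sample. The sum of 11 amacrine cell genes, 1490 to 1700 CPM at E18 and 1790 to 2000 CPM at P5, was mostly Calb2 and Pax6, and Calb2 was the only gene of the list called lower at E18. Of the 9 tested, 4 were called higher by edgeR, and they were high in E18 replicates 1 and 3 only, as for Tfap2b (47.5, 119 and 1.62 CPM in E18 replicates 1, 3 and 4 and 1.02 to 1.55 CPM at P5). The sums of Müller glia and astrocyte genes (12 genes, 437 to 475 CPM and 353 to 370 CPM), microglial genes (11 genes, 21.7 to 24.1 CPM and 25.3 to 35.0 CPM) and red blood cell genes (1.59 to 1.82 CPM and 0.699 to 1.28 CPM) were separate between the ages. Those of 9 bipolar cell genes (50.1 to 74.8 CPM and 70.1 to 97.8 CPM) and 12 photoreceptor genes (4.37 to 12.8 CPM and 4.6 to 6.36 CPM) overlapped. The part of these cells in the results below was not tested. In samples of many cells, a smaller number of cells of one type and less RNA per cell cannot be told apart.

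Counts sufficed for a test in 9 of the 10 genes, and Dlk1 was too low. H19 and Nnat were higher at E18, and Meg3, Rian, Peg3 and Grb10 were lower, while Mest, Plagl1 and Ndn did not pass the threshold at an adjusted p of 0.05. Every adjusted p below is that of the quasi-likelihood test of edgeR with Benjamini-Hochberg adjustment over the 16449 genes tested, and SE is the standard error of the log2 fold change of E18 over P5. The 6 called genes stand beside 43.4% of all genes tested, 20.8% higher and 22.5% lower at E18. Without overlap between the ages, 3 of the 10 genes were above P5 at E18, Dlk1 among them, and 5 were below, beside 27.6% and 28.5% of the genes tested. With 9 genes tested, nothing is read from the difference between these shares. The median log2 fold change was -0.24 for the 9 genes and 0.00 for all genes tested.

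**Figure D1:**
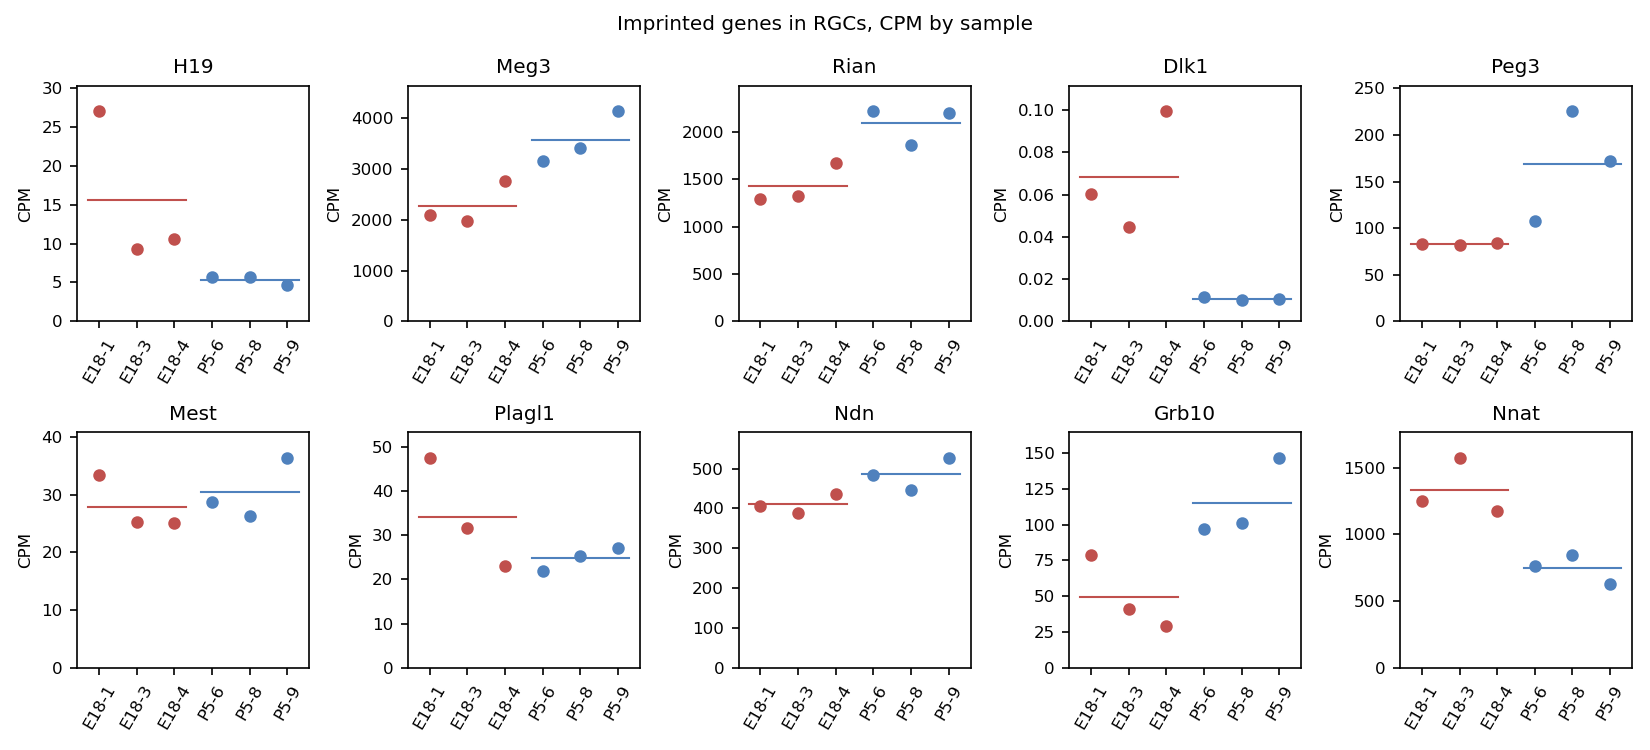
CPM (y axis, linear, from 0) of the 10 imprinted genes in the 3 E18 (red) and 3 P5 (blue) samples, with the mean of each age as a line. H19 and Nnat lie higher at E18, Meg3, Rian, Peg3, Ndn and Grb10 lie lower without overlap, and Dlk1 does not exceed 0.1 CPM.

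The genes differed in abundance by several orders of magnitude. Per kilobase of exon, the order at P5 was Nnat (472 to 634 CPM per kb), Meg3 (201 to 264), Ndn (121 to 143), Rian (102 to 122), Grb10 (18.9 to 28.6), Peg3 (12.4 to 25.9), Mest (9.47 to 13.1), Plagl1 (4.16 to 5.13), H19 (2.07 to 2.5) and Dlk1 (0.00213 to 0.00236). The ranges of Ndn and Rian, of Grb10 and Peg3 and of Peg3 and Mest overlapped. At E18 the first 4 places went to Nnat (879 to 1180 CPM per kb), Meg3 (126 to 176), Ndn (105 to 118) and Rian (71.0 to 91.8) without overlap. The ranges of Grb10 (5.73 to 15.4), Mest (9.02 to 12), Peg3 (9.43 to 9.65) and H19 (4.09 to 11.8) overlapped at E18. That of Plagl1 (4.36 to 9.03) overlapped those of Grb10, Mest and H19. Rian has no transcript linked to RefSeq in the annotation, and its length is that of all its annotated exons. The lengths of the other genes are those of exons linked to RefSeq, so the place of Rian in both orders could differ with another length. In CPM, Meg3 was in place 10 of all genes by its mean over the samples, Rian in place 26 and Nnat in place 66.

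H19, Meg3 and Rian are long noncoding RNAs expressed from the maternal copy. Meg3 (ENSMUSG00000021268.17, chromosome 12 of mm10, 109541001 to 109571726, plus strand) begins the maternal transcripts of the Dlk1-Dio3 cluster. It had 2092, 1975 and 2766 CPM in E18 replicates 1, 3 and 4 and 3153, 3424 and 4139 CPM in P5 replicates 6, 8 and 9. Every E18 sample lay below every P5 sample. The means were 2278 ± 427 and 3572 ± 510 CPM (SD, n = 3 each), and the log2 fold change was -0.65 (SE 0.148, adjusted p = 0.00835 in edgeR). Meg3 shares 1228 bases of exon with Gm26906 on the other strand. Meg3 took 0.193% to 0.269% of all counted reads at E18 and 0.318% to 0.419% at P5.

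Rian (ENSMUSG00000097451.10, chromosome 12, 109603940 to 109661716, plus strand) lies downstream of Meg3 and carries many small nucleolar RNAs in its introns. It had 1295, 1328 and 1673 CPM in E18 replicates 1, 3 and 4 and 2219, 1861 and 2195 CPM in P5 replicates 6, 8 and 9. As for Meg3, E18 replicate 4 was the highest E18 sample and stayed below all P5 samples. The log2 fold change was -0.55 (SE 0.121, adjusted p = 0.00734 in edgeR). Counts of Meg3 were 1.49 to 1.65 times those of Rian at E18 and 1.42 to 1.89 times at P5, so the ratio of the RNAs overlapped between the ages.

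H19 (ENSMUSG00000000031.16, chromosome 7, 142575529 to 142578143, minus strand), the noncoding RNA beside Igf2 and the host of miR-675, was far less abundant. It had 27.0, 9.35 and 10.6 CPM in E18 replicates 1, 3 and 4 and 5.71, 5.69 and 4.74 CPM in P5 replicates 6, 8 and 9. All E18 samples were above all P5 samples, and replicate 1 stood well above the other E18 samples. The means were 15.7 ± 9.87 and 5.38 ± 0.552 CPM (SD, n = 3 each), and the log2 fold change was 1.54 (SE 0.372, adjusted p = 0.0109 in edgeR). Without E18 replicate 1, the sample with the highest progenitor and dividing-cell sums, it was 0.90 (adjusted p = 0.00943 in edgeR), so the size of the change rested on that sample and the call did not.

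Dlk1 (ENSMUSG00000040856.17, chromosome 12, 109452823 to 109463336, plus strand) encodes a transmembrane protein with EGF-like repeats, related to Notch ligands, and is expressed from the paternal copy at the other end of the cluster from Dio3. It was the only gene of the 10 near the limit of detection. It had 5, 5 and 9 reads in E18 replicates 1, 3 and 4 and 1 read in each P5 sample. Summed over samples, 19 and 3 reads gave a ratio of E18 to P5 of 6.23, with an exact 95% interval of 1.84 to 32.9 that covers counting error only. Its neighbour Meg3, 88.2 kb away, was in place 10 of all genes in the same libraries. The table pairs the Dlk1 row with a RefSeq transcript of the noncoding class, and whether all reads of the gene were counted under it is not stated.

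Of the other listed genes of the cluster, Mirg and Rtl1 were also lower at E18. Mirg, a maternal noncoding RNA that holds microRNAs, had 11.6, 10.3 and 14.1 CPM at E18 and 24.7, 25.2 and 37.7 CPM at P5 (log2 fold change -1.29, SE 0.193, adjusted p = 0.00139 in edgeR). Rtl1, a retrotransposon-derived gene expressed from the paternal copy, had 9.00, 8.00 and 12.03 CPM at E18 and 20.0, 20.6 and 24.6 CPM at P5 (log2 fold change -1.17, adjusted p = 0.00126 in edgeR). For both genes every E18 sample was below every P5 sample. Maternal microRNA hairpins lie antisense within the Rtl1 exons, and the rows of Mir127, Mir136, Mir431, Mir433 and Mir434 there had no count in any sample. It is not stated whether reads were counted by strand, so those of a maternal antisense transcript could be included in the Rtl1 row. How much of the Rtl1 row such reads make up was not tested. Dio3, the deiodinase that inactivates thyroid hormone, was below 1 CPM in all samples and did not pass (log2 fold change 1.84, SE 0.977, adjusted p = 0.156 in edgeR). It had 55, 19 and 7 reads in E18 replicates 1, 3 and 4 and 13, 10 and 0 in P5 replicates 6, 8 and 9. When 1 sample was left out, the log2 fold change of Dio3 was 0.61 to 2.5. In all, 4 of 5 tested cluster genes were lower at E18 and none was higher in edgeR (all genes tested: 22.5% and 20.8%). At an unadjusted p under 0.05 and in DESeq2, 0 were higher as well, and the median log2 fold change was -0.65. Neighbours in the same cluster are not independent, so nothing is read from the difference between these shares. Dlk1 was not among the 5 tested. With no filter it was higher at E18 (log2 fold change 2.53, adjusted p = 0.0422 in edgeR), on 19 reads at E18 and 3 at P5.

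**Figure D2:**
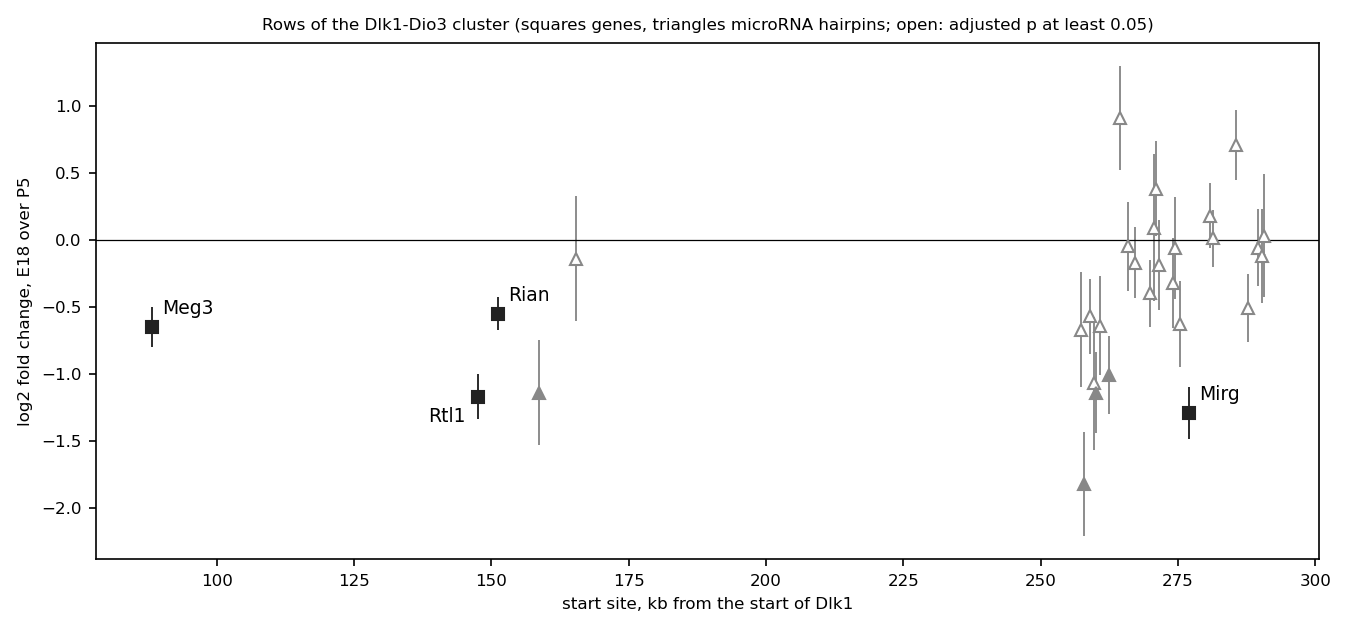
Log2 fold change of E18 over P5 with its SE (y axis) against the distance of the start site from the start of Dlk1 in kb (x axis), for genes (squares) and microRNA hairpins (triangles) of the Dlk1-Dio3 cluster that were tested, filled where the adjusted p was under 0.05. Meg3, Rtl1, Rian and Mirg lie at 88.2, 147.5, 151.1 and 276.9 kb and were all lower at E18, while Dio3 at 826.2 kb is outside the plotted range.

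The table also has rows for microRNA hairpins hosted by these loci, 37 in the Dlk1-Dio3 cluster, Mir675 in H19 and Mir335 in an intron of Mest. The libraries were not made for small RNAs, so such a row counts fragments of longer RNA over the hairpin and not the mature microRNA. Of the 39 rows, 9 had no count in any sample, Mir675 and Mir770 within the exons of H19 and Meg3 among them, where 3 reads correspond to 0.0268 to 0.0362 CPM. Both hairpins lie on the strand of their hosts, which had reads in every sample, and how reads over more than 1 gene were assigned is not stated. Of the 27 rows tested, 5 were lower at E18 and none was higher in edgeR, against 22.5% lower and 20.8% higher among all genes. Lower calls were thus no more frequent than among all genes, and the median log2 fold change was -0.19. At an unadjusted p under 0.05, 2 rows were higher in edgeR, and DESeq2 called 0 higher. The highest mean of any hairpin row was 2.22 CPM.

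The 5 called hairpins were Mir299a, Mir758, Mir494, Mir341 and Mir335. Their mature sequences follow because their rows were called, though the rows do not measure mature microRNAs. The sequences are as listed by RefSeq for GRCm38.p6 (the assembly of mm10), 5′ to 3′, with the seed (bases 2 to 8) in capitals.
mmu-miR-299a-5p: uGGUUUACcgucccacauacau
mmu-miR-299a-3p: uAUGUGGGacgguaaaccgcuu
mmu-miR-758-5p: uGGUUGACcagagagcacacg
mmu-miR-758-3p: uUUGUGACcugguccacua
mmu-miR-494-5p: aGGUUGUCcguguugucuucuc
mmu-miR-494-3p: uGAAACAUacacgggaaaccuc
mmu-miR-341-5p: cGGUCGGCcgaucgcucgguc
mmu-miR-341-3p: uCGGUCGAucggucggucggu
mmu-miR-335-5p: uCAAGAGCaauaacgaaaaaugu
mmu-miR-335-3p: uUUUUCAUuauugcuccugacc

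These 10 arms have 10 different seeds. Among all hosted microRNAs, miR-494-5p shares its seed with miR-410-5p, and miR-299a-3p shares its seed with miR-299b-3p, whose hairpin overlaps Mir299a on the other strand and had no count. The Mir299a row had 7, 7 and 10 reads in E18 replicates 1, 3 and 4 and 31, 25 and 29 reads in P5 replicates 6, 8 and 9 (log2 fold change -1.82, SE 0.387, adjusted p = 0.00622 by edgeR). It was the only hairpin row whose call held in each fit that left out 1 sample. The number of called rows was 1 to 6 in those fits, with 1 without E18 replicate 3, 2 without E18 replicate 1 and 3 without E18 replicate 4 or P5 replicate 6. Without P5 replicate 9, 3 rows were lower and 1 was higher. Mir335 had 56 to 67 reads at E18 and 104 to 148 at P5 (log2 fold change -0.99, adjusted p = 0.0228 by edgeR, with the call lost without E18 replicate 3 or P5 replicate 6), beside a log2 fold change of -0.13 for Mest, in whose intron it lies. Whether the hairpin and its host differed in change was not tested.

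Peg3 and Plagl1 regulate transcription. Peg3 (ENSMUSG00000002265.16, chromosome 7, 6703892 to 6730431, minus strand), a zinc finger protein expressed from the paternal copy, had 83.4, 82.0 and 83.9 CPM in E18 replicates 1, 3 and 4. In P5 replicates 6, 8 and 9 it had 108, 225.6 and 172 CPM. The E18 samples were nearly equal, and the spread lay within P5. The log2 fold change was -1.02 (SE 0.222, adjusted p = 0.00690 in edgeR), and it was -0.77 without P5 replicate 8, with the call kept.

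In the Peg3 cluster, Usp29, a paternally expressed deubiquitinase gene, had 65.8, 75.0 and 81.3 CPM at E18 and 94.0, 91.4 and 91.9 CPM at P5 (log2 fold change -0.32, adjusted p = 0.0287 in edgeR). Its call was lost in 4 of the 6 fits without a sample, those without E18 replicate 1 or 3 or P5 replicate 6 or 9 (adjusted p = 0.0539 to 0.133 in edgeR). Usp29 shares 2582 bases of exon with Zim3 on the other strand. Zim1, a maternally expressed zinc finger gene, had 12.3 to 16.7 CPM at E18 and 13.2 to 24.6 CPM at P5 and did not pass (log2 fold change -0.36, adjusted p = 0.242 in edgeR).

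Plagl1 (ENSMUSG00000019817.18, chromosome 10, 13060504 to 13131694, plus strand), also called Zac1, encodes a zinc finger factor that restrains proliferation. It had 47.5, 31.6 and 22.9 CPM in E18 replicates 1, 3 and 4 and 21.9, 25.3 and 27.0 CPM in P5 replicates 6, 8 and 9. E18 replicate 4 lay among the P5 samples, so the ages overlapped. The log2 fold change was 0.46 and did not pass (SE 0.232, adjusted p = 0.140 by edgeR). It was 0.15 without E18 replicate 1 and passed without E18 replicate 4, at 0.68 (adjusted p = 0.0234 in edgeR). The order of the E18 samples was that of the progenitor and dividing-cell sums.

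Grb10 (ENSMUSG00000020176.17, chromosome 11, 11930508 to 12038683, minus strand) encodes an adaptor that binds the insulin and IGF1 receptors and damps their signal. It is expressed from the maternal copy in most tissues and from the paternal copy in neurons. It had 78.9, 41.1 and 29.4 CPM in E18 replicates 1, 3 and 4 and 96.9, 101 and 147 CPM in P5 replicates 6, 8 and 9, without overlap. The means were 49.8 ± 25.9 and 114.9 ± 27.7 CPM (SD, n = 3 each), and the log2 fold change was -1.21 (SE 0.328, adjusted p = 0.0180 in edgeR). The call was lost without E18 replicate 3 (adjusted p = 0.0654 in edgeR) or P5 replicate 9 (adjusted p = 0.0628 in edgeR), and the log2 fold change was -1.70 without E18 replicate 1. As for Plagl1, the E18 samples were ordered as their progenitor sums, with the highest Grb10 level in replicate 1, so that the level in that sample came nearest to P5.

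The receptors that Grb10 binds and their substrates were followed from a list of 5 genes. By edgeR's test, 3 were higher at E18 and 1 was lower, beside 20.8% higher and 22.5% lower among all genes tested. Igf1r, the IGF1 receptor, had 169, 167 and 144 CPM at E18 and 62.3, 89.4 and 46.5 CPM at P5 (log2 fold change 1.28, SE 0.209, adjusted p = 0.00203 in edgeR). Insr, the insulin receptor, was higher at E18 by less (log2 fold change 0.66, adjusted p = 0.00270 in edgeR), and Irs2, a substrate of both, had 26.6 to 33.0 CPM at E18 against 10.3 to 16.5 at P5 (log2 fold change 1.19, adjusted p = 0.00138 in edgeR). Igf1, the ligand, was lower at E18, with 97.0 to 117 CPM against 177 to 223 CPM (log2 fold change -0.93, adjusted p = 0.000681 in edgeR), and Irs1 did not pass (0.24, adjusted p = 0.138 in edgeR) except without P5 replicate 8 (0.37, adjusted p = 0.00424 in edgeR). Counts of Grb10 were 0.205 to 0.467 times those of Igf1r in the E18 samples and 1.13 to 3.16 times in the P5 samples. These counts are not scaled to gene length, and the ratio serves only to set the samples side by side.

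**Figure D3:**
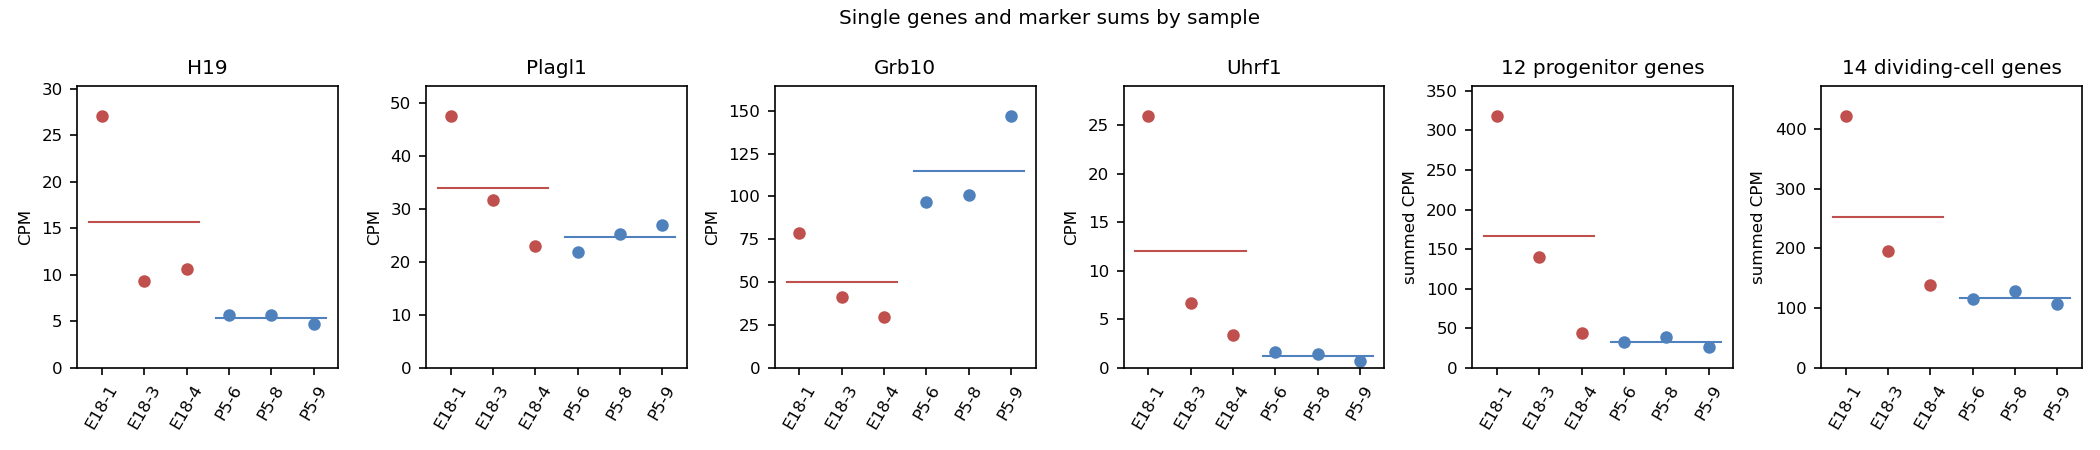
CPM by sample (y axes, linear, from 0) of H19, Plagl1, Grb10 and Uhrf1 and the summed CPM of 12 retinal progenitor and 14 dividing-cell genes, with the mean of each age as a line (E18 red, P5 blue). E18 replicate 1 is the highest E18 sample in every panel, and for Grb10 all E18 samples stay below P5.

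Nnat (ENSMUSG00000067786.16, chromosome 2, 157560078 to 157562522, plus strand) encodes neuronatin, a small proteolipid of the endoplasmic reticulum membrane in neurons, expressed from the paternal copy. It had 1252, 1575 and 1172 CPM in E18 replicates 1, 3 and 4 and 767, 846 and 629 CPM in P5 replicates 6, 8 and 9. The ages were separate, with means of 1333 ± 213 and 747 ± 109.5 CPM (SD, n = 3 each). The log2 fold change was 0.83 (SE 0.142, adjusted p = 0.00242 in edgeR), and it was 0.70 to 0.92 when 1 sample was left out. Nnat lies within Blcap, whose levels overlapped between the ages (131 to 149 CPM at E18 and 142 to 165 at P5) and did not pass (log2 fold change -0.10, adjusted p = 0.403 in edgeR). Nnat and Meg3, both among the most abundant imprinted transcripts of RGCs, changed in opposite directions, and counts of Nnat were 0.424 to 0.798 times those of Meg3 at E18 and 0.152 to 0.247 times at P5.

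Ndn (ENSMUSG00000033585.5, chromosome 7, 62346569 to 62350262, plus strand) encodes necdin, a MAGE family protein of postmitotic neurons that binds E2F factors, and lies in the Prader-Willi cluster. It had 405, 389 and 437 CPM in E18 replicates 1, 3 and 4 and 483, 447 and 527 CPM in P5 replicates 6, 8 and 9. The ages did not overlap, as in 56.1% of all genes tested, but the difference was small and did not pass (log2 fold change -0.24, SE 0.0932, adjusted p = 0.0622 by edgeR). It passed without P5 replicate 8 (adjusted p = 0.0181 in edgeR) and with the filter at a mean of 1 CPM (adjusted p = 0.0405 in edgeR).

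Around Ndn, Magel2, another MAGE gene, had 9.33, 9.02 and 13.7 CPM at E18 and 16.2, 14.7 and 21.3 CPM at P5 (log2 fold change -0.71, adjusted p = 0.0217 in edgeR). Its call was lost without E18 replicate 1 or 3 or P5 replicate 9 (adjusted p = 0.0744 to 0.0851 in edgeR). Peg12, a GSK3-binding protein gene, was higher at E18, with 5.56, 4.00 and 2.09 CPM against 0.237, 1.25 and 0.255 CPM (log2 fold change 2.73, SE 0.650, adjusted p = 0.0103 in edgeR). Without P5 replicate 8, the highest P5 sample, the log2 fold change of Peg12 was 3.96. Mkrn3, Snrpn, Snurf and Ube3a did not pass, with log2 fold changes of -0.29 to 0.03. Snrpn and Snurf share exons, and Ube3a shares exon positions with antisense transcripts. Thus 1 of the 7 tested genes of this cluster was higher at E18 and 1 was lower, against 20.8% and 22.5% of all genes tested.

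Mest (ENSMUSG00000051855.15, chromosome 6, 30723547 to 30748465, plus strand) encodes a protein of the alpha/beta hydrolase family named for its expression in mesoderm. It had 33.4, 25.2 and 25.0 CPM in E18 replicates 1, 3 and 4 and 28.7, 26.3 and 36.4 CPM in P5 replicates 6, 8 and 9. The samples of both ages overlapped, and the log2 fold change of -0.13 did not pass (SE 0.160, adjusted p = 0.549 by edgeR) and changed sign without P5 replicate 9, to 0.02. The 3′ end of Mest shares 912 bases of exon with Copg2 on the other strand, and Copg2 did not pass (log2 fold change 0.14, adjusted p = 0.308 in edgeR). Klf14, in the same cluster, had at most 0.181 CPM and was not tested.

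The remaining listed neighbours lie by H19 and Grb10. Igf2, the growth factor gene that shares its control region with H19, had 0.711, 0.232 and 0.110 CPM in E18 replicates 1, 3 and 4 and 0.304, 0.173 and 0.414 CPM in P5 replicates 6, 8 and 9. It did not pass (log2 fold change 0.22, SE 0.634, adjusted p = 0.796 by edgeR) and changed sign, to -0.77 without E18 replicate 1 and to -0.06 without P5 replicate 8. Beside Grb10, Ddc, the aromatic amino acid decarboxylase gene, was lower at E18 at levels of 0.618 to 2.77 CPM (log2 fold change -1.64, adjusted p = 0.00459 in edgeR), and Cobl, an actin nucleator gene, did not pass (-0.08, adjusted p = 0.482 in edgeR). Zfp264 was not analysed here.

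A wider list of 51 other imprinted genes, 50 of them in the table, was read beside these. Of the 44 tested, 7 were higher at E18 and 13 were lower by edgeR's test, beside 20.8% higher and 22.5% lower among all genes tested, with a median log2 fold change of -0.09. Among all imprinted genes on both lists, 4 of 28 tested genes known for expression from the paternal copy were higher at E18 and 11 were lower (median log2 fold change -0.20). Of 23 tested genes known for expression from the maternal copy, 5 were higher and 5 were lower (median log2 fold change -0.04), and the same 20.8% and 22.5% of all genes stand beside both classes. Grb10 and Gnas, whose expressed copy depends on the tissue or transcript, were left out of these counts, and a difference between the parental classes was not tested.

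The gene of the wider list with the highest fold change of E18 over P5 was Cdkn1c, a maternally expressed inhibitor of cyclin-dependent kinases, also called p57. It had 59.6, 57.2 and 60.5 CPM in E18 replicates 1, 3 and 4 and 6.81, 8.00 and 9.31 CPM in P5 replicates 6, 8 and 9. Unlike H19, its 3 E18 samples were nearly equal (log2 fold change 2.88, SE 0.132, adjusted p = 2.05e-05 in edgeR), and without E18 replicate 1 and each other sample in turn it was 2.76 to 2.99. Cdkn1c shares 625 bases of exon with Gm44732 on the other strand. Peg10, a retrotransposon-derived gene, had 10.6, 15.3 and 5.16 CPM at E18 and 1.83, 2.86 and 1.71 CPM at P5 (log2 fold change 2.28, adjusted p = 0.00234 in edgeR). Zdbf2 (0.65, adjusted p = 0.0127 in edgeR) and Tssc4 (0.51, adjusted p = 0.0119 in edgeR) were also higher at E18, by less.

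Kcnk9 and Rasgrf1 had the lowest fold changes of E18 over P5. Kcnk9, a potassium leak channel gene, had 0.362, 0.285 and 0.475 CPM at E18 and 7.50, 6.94 and 12.3 CPM at P5 (log2 fold change -4.58, SE 0.317, adjusted p = 9.07e-05 in edgeR). Rasgrf1, a Ras exchange factor gene, had 0.759, 0.481 and 0.883 CPM at E18 and 8.38, 6.49 and 31.3 CPM at P5 (log2 fold change -4.45, SE 0.630, adjusted p = 0.00111 in edgeR). P5 replicate 9 was the highest sample for both, and without it the log2 fold change of Rasgrf1 was -3.40, with the call kept. Slc38a4, an amino acid transporter gene (log2 fold change -1.81), Nap1l5 (-1.18), Inpp5f, a phosphoinositide phosphatase gene (-0.71), and Impact, a regulator of translation (-0.58), were lower at E18 as well, with adjusted p-values of 0.000155 to 0.00546 in edgeR.

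Parental methylation marks are kept through development by Zfp57 and Zfp445, zinc finger proteins that bind methylated imprinting control regions, with Trim28 as their partner, and by Dnmt1 and Uhrf1, which copy methylation at replication. Ctcf binds the unmethylated control region of H19. Of these 6 genes, 5 were higher at E18 and none was lower by edgeR's test (all genes tested: 20.8% higher and 22.5% lower), with 0 lower also at an unadjusted p under 0.05 and in DESeq2. Zfp57 had 195, 205 and 223 CPM at E18 and 127, 130.0 and 89.8 CPM at P5 (log2 fold change 0.85, SE 0.143, adjusted p = 0.00236 in edgeR). Trim28 and Dnmt1 were higher at E18, with log2 fold changes of 0.52 and 0.53 (adjusted p = 0.00355 and 0.00137 in edgeR), as was Ctcf (0.43), with its call lost without E18 replicate 1 or 3 or P5 replicate 6 or 9 (adjusted p = 0.0542 to 0.0778 in edgeR). Uhrf1 had 25.9, 6.67 and 3.38 CPM in E18 replicates 1, 3 and 4 and 0.680 to 1.67 CPM at P5, and its log2 fold change of 3.24 (adjusted p = 0.00745 in edgeR) was 1.99 without E18 replicate 1. Zfp445 did not pass (0.23, adjusted p = 0.0904 in edgeR) except without P5 replicate 8 (0.27, adjusted p = 0.0431 in edgeR).

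Zfp57 recognises the letters TGCCGC when their CpG is methylated, and the promoters of the 10 genes were searched for them on both strands (GCGGCA on the other strand). The RefSeq promoter windows of GRCm38.p6 hold 250 bases before to 50 after a start site, and 9 of the 10 genes, all but H19, had at least 1. The letters were in 5 of these 9 genes (55.6%), against 13.1% of 26994 genes with a window, and in 6 of 13 windows, against 11.6% of 32817. The windows of these genes held a median of 13 CpG, against 7.0 in all windows. Among 57 windows of the wider list of imprinted genes, 11 (19.3%) held the letters. The median CpG count of those 57 windows was above 13. A difference between these shares was not tested. The letters hold a CpG themselves, and the share in the 9 genes was not compared with windows of equal CpG count. The matches are shown with the letters in capitals, read along the gene's strand.
Meg3 (chr12:109540796-109540821, plus strand): caggggcactGCGGCAgatttttttt
Mest (chr6:30737800-30737823, plus strand): ccttgcccGCGGCAttaacacatg
Mest (chr6:30737973-30737998, plus strand): gaggggcgctGCGGCAggatgggcgg
Plagl1 (chr10:13090732-13090757, plus strand): ggcgtgttgcGCGGCAaagcccacgg
Grb10 (chr11:12037381-12037406, minus strand): gtgcggggagGCGGCAggaagggaag
Nnat (chr2:157560095-157560120, plus strand): caccggggctGCGGCAttgcgcccag

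The Mest matches were counted in 2 windows that overlap almost entirely. Of the 5 genes with a match, Meg3 and Grb10 were lower at E18, Nnat was higher, and Mest and Plagl1 did not pass, so a match went with no single direction. Methylation and binding of Zfp57 were not measured, and a match is a description of the letters in the window.

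The genes whose pattern over the 6 samples was closest to that of H19, the gene with the highest fold change of the 9 tested, were sought among the 9725 genes that averaged 10 CPM or more. By the root mean square difference of centred log2 CPM, they were Mcm2 (0.257), Gpr98 (0.294) and Adamts1 (0.333). Mcm2, a subunit of the replicative helicase and one of the 14 dividing-cell genes, had 22.3, 11.9 and 9.19 CPM in E18 replicates 1, 3 and 4 and 6.10 to 6.62 CPM at P5. For Grb10, which had the lowest fold change of the 9, the closest were Casz1 (0.188), Sema5a (0.214) and Sash1 (0.255), each with E18 replicate 1 as the highest E18 sample and P5 replicate 9 as the highest P5 sample. All these closest genes, Mcm2 among them, were picked by their values in the same samples. A shared order of samples follows from that choice, and nothing is read from it.

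**Figure D4:**
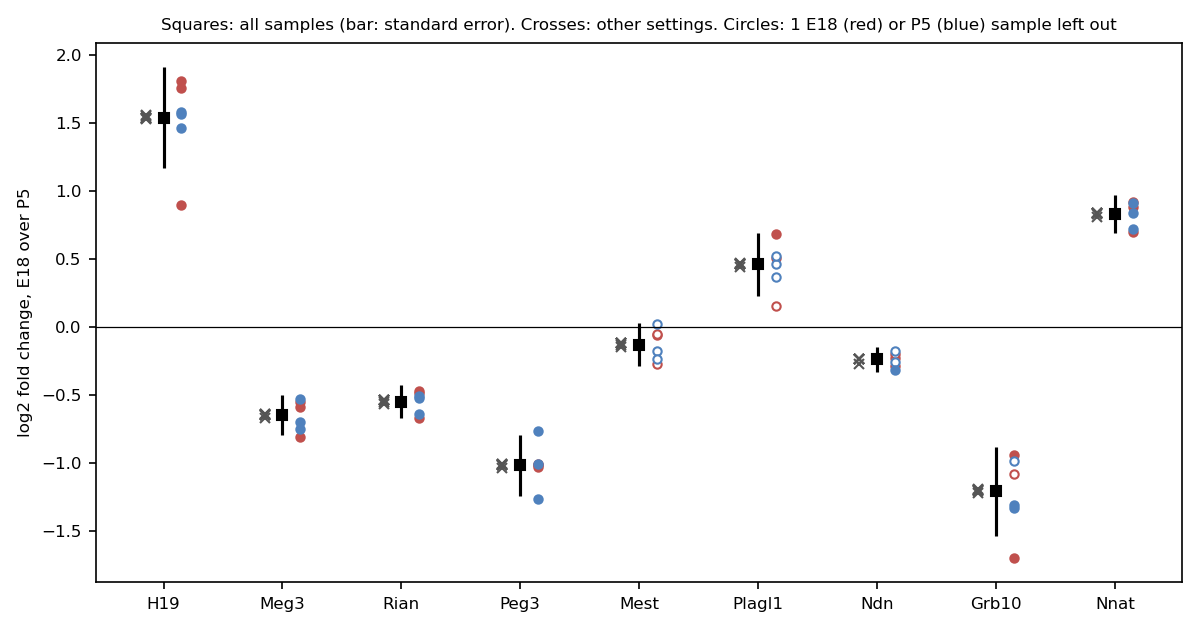
Log2 fold change of E18 over P5 (y axis) of the 9 tested genes in all samples (squares, with standard errors), under 6 other settings (crosses) and with 1 E18 (red) or P5 (blue) sample left out (circles, filled where the adjusted p was under 0.05). H19 falls to 0.90 without E18 replicate 1, Mest and Plagl1 lie near 0 in some fits, and the other settings move each gene by less than its standard error.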

How the data were processed

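RNA of immunopanned RGCs from 3 E18 and 3 P5 samples was analysed. The authors prepared libraries with TrueSeq and RiboZero Gold, whereas the labels name polyA RNA. They used STAR 2.4.0 for alignment to mm10 and HT-seq 0.6.1 for counting over RefSeq genes. Raw counts are what the authors deposited. The normalized counts deposited by the authors, a library-scaled signal, were not used, nor were the log2 fold changes, p-values and rank score that the authors deposited from their own EdgeR comparison. Strand setting and treatment of multiply mapped reads are not stated, so overlapping genes are uncertain. Counts were normalized by TMM, filtered with filterByExpr and fitted in edgeR 4.0.16 (quasi-likelihood test, R 4.3.3), with Benjamini-Hochberg adjustment over all 16449 genes tested and a threshold of 0.05. CPM values use TMM-scaled libraries, and at 81213639 to 114512853 reads per sample 3 reads correspond to 0.0268 to 0.0362 CPM. Samples of one age differed by a chi-square of 30.5 to 141 per degree of freedom, far more than sampling noise, and none was a copy of another. The scripts were tested on simulated counts. Alternatives were DESeq2 1.42.0, edgeR's exact test, other normalizations and filters, and leaving out each sample.

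The 10 genes and all lists were chosen with earlier results of these data known. Named are the 10 genes, their listed cluster neighbours, the 10 other imprinted genes with the largest change among those past the threshold with a mean of at least 1 CPM, the maintenance and receptor lists, and the closest patterns. The called hairpins, Gnas and the single marker genes were named after their values were seen. Coordinates and exon lengths are those of GENCODE M21 for mm10 (GRCm38), matched by symbol, with lengths from exons of transcripts linked to RefSeq, and sequences are from RefSeq.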

Additional observations from a re-analysis of the deposited data

How the results depend on the processing

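No paired analysis was possible because the E18 and P5 samples share no replicate number. The number of the 10 genes called was 6 or 7 under the other tools, normalizations and filters and 5 to 7 when 1 sample was left out, and it reached 7 with no filter, where Dlk1 passed (adjusted p = 0.0422 in edgeR), and with genes averaging 1 CPM or more, where Ndn passed at -0.27. When 1 sample was left out, the log2 fold change of Mest was -0.27 to 0.02, of Plagl1 0.15 to 0.68, of Ndn -0.32 to -0.18 and of Grb10 -1.70 to -0.94. H19, Meg3, Rian, Peg3 and Nnat kept direction and call in all 12 alternatives. Among neighbours, Igf2 (-0.77 to 0.65), Mkrn3 (-0.01 to 0.04) and Snrpn (-0.10 to 0.05) changed sign when a sample was left out, Igf2 at -0.77 without E18 replicate 1 and -0.06 without P5 replicate 8, Mkrn3 at -0.01 without P5 replicate 6 and Snrpn at 0.05 without E18 replicate 1. The count of other imprinted genes called was 16 to 20. Hairpin rows called fell to 0 by edgeR among rows averaging 1 CPM or more, where 4 other rows were tested and 0 had an unadjusted p under 0.05, and were 1 to 6 without a sample. Over all genes, 4575 to 8796 were called without a sample, lowest without E18 replicate 3. The median of all genes moved by less than 0.1 under every scaling. Dlk1, Igf2, Dio3, Klf14 and the hairpin rows had low counts, so that smaller differences in them were not detectable at this depth. Mir134, the hairpin row with the highest mean, had 171 to 236 reads per sample.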
